A study of Mus musculus with 6 samples.

Results

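Snail, encoded by Snai1, is a zinc finger repressor, and the 9 genes described here are Snai1 itself and 8 genes for the corepressors through which it acts. They were chosen by name, and every array probe annotated to them was taken. Of the 9 genes, 8 were measured, with 15 probes among the 45281 examined, and Hdac1, which encodes a histone deacetylase, was not analysed here. On at least 1 array, 11 of the 15 probes were detected, and these covered all 8 genes. RNA of E14 mouse embryonic stem cells was hybridised to Illumina bead arrays. The cells were grown in serum with LIF, which keeps mouse embryonic stem cells undifferentiated. All 6 arrays came from cells with Snail-ER, in which Snail is fused to an estrogen receptor domain, and differed in the time in 4-hydroxytamoxifen (4-OHT), which was given to bring the fusion into the nucleus. The times were 0, 2, 4, 8, 12 and 24 h, with 1 array each. No array of cells without the fusion, or of cells kept for the same hours without 4-OHT, was analysed here, so 4-OHT, the fusion and time in culture cannot be told apart. Whether each array had its own culture is not stated in the labels.

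Snail binds E-boxes, short DNA motifs in the promoters of epithelial genes, through its zinc fingers. The SNAG domain at its N-terminus resembles the histone tail that the demethylase Kdm1a recognises and brings in corepressors. The Sin3a and HDAC complex removes acetyl groups from histones, Kdm1a with Rcor1 (CoREST) removes methyl groups from a lysine of histone H3 that marks active promoters, and Polycomb repressive complex 2 (PRC2, with Ezh2, Suz12 and Eed) adds the methyl mark of Polycomb silencing to another lysine of histone H3. Snail is also known to bind an E-box in its own promoter and to repress its own gene. The question addressed here was how the transcripts of Snail and of these complexes varied with time after 4-OHT.

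The promoter of Snai1 is shown because the Snai1 probe was the member probe that changed, next to that of Cldn4, a tight junction claudin gene and reported Snail target that had the steepest fall among the reported target genes examined. Both are RefSeq sequences of GRCm38.p6 from 250 bases before to 50 after the annotated gene start, with the E-box CAGGTG, or CACCTG where it lies on the other strand, in capitals. Snai1 lies at chr2:167537945-167538244 (plus strand) and Cldn4 at chr5:134946885-134947184 (minus strand).
Snai1: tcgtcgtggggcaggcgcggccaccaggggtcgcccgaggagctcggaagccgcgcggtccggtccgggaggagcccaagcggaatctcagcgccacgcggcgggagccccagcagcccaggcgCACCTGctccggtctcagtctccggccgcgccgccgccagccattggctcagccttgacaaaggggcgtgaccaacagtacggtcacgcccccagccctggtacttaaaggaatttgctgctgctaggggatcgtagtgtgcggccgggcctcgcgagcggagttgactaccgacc
Cldn4: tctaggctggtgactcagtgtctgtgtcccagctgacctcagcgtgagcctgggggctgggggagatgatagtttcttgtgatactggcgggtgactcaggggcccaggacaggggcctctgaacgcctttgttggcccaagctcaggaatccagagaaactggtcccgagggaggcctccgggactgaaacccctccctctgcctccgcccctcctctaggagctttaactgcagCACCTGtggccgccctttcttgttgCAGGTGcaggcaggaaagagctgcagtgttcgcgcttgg
The Snai1 window held 1 such E-box, which began at -126 relative to the gene start, and the Cldn4 window held 2, which began at -14 and 12. Among the 8 members with a promoter sequence (all but Hdac1), Snai1 was the 1 gene with the motif, and 20.2% of all 32851 promoter windows held it. The windows of Crb3, Muc1, Ocln, Cldn3 and 1 of 2 windows of Cldn7, further reported Snail targets, also held it. None of these genes passed the test over time. Muc1, Ocln and Cldn3 were not detected on any array, and Crb3 and Cldn7 were detected on 1 array each. Cdh1 and Llgl2, also reported targets, had no promoter sequence in the source used here, so theirs could not be searched. A match to these letters is a description and does not show binding.

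The values below are normalized intensities, background-subtracted and normalized between arrays by the authors. A probe was called detected on an array where its detection p-value was under 0.01 or, for probes deposited without one, where it reached the lowest normalized intensity of a detected probe. That limit differed between arrays. The 0, 2 and 8 h arrays had high limits, of 60.6, 71.1 and 62.0, and the 4, 12 and 24 h arrays low ones, of 31.4, 18.5 and 18.9. Changes over time were fitted as a line on log2(intensity + 16) against log2(hours + 1) with limma over all 17143 probes detected on at least 1 array. The fitted change is the difference along this line between 0 and 24 h, and a probe is said to have risen or fallen where its limma adjusted p was below 0.05. All 10 embryonic stem cell markers examined, among them Pou5f1, Sox2 and Nanog, were detected on all 6 arrays. Their levels were not all steady. By the brightest probe of each, 3 of the 10 fell and 1, Utf1, rose, where 12.7% of all genes were called. A dimmer Pou5f1 probe (0.56; limma adjusted p = 0.035) and dimmer Lin28a probes (1.19 and 0.80; limma adjusted p = 0.012 and 0.040) also rose. Another Lin28a probe changed by -0.38 without passing. The Utf1 call was lost without the 0, 2, 12 or 24 h array, and that of Nanog without the 0 h array. Those that fell, Nanog, Zfp42 and Esrrb, were 2.67-, 3.86- and 3.97-fold lower at 24 h than at 0 h. Of 9 fibroblast markers that would reveal feeder cells, 7 were not detected on any array, the collagen genes Col1a1, Col1a2 and Col3a1 among them. Thy1 was detected on all arrays and Dcn at 12 and 24 h, and the summed intensity of both ran from 125.8 to 214 across the arrays.

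The Snai1 transcript fell, and none of the 7 corepressor genes with probes rose or fell. Snai1 was thus the 1 of 8 measured members called, and 1 of 11 member probes, where 11.4% of all probes were called (5.95% rose and 5.42% fell). The share of members called was therefore near that of the whole array. At an unadjusted limma p under 0.05, 2 of the 8 genes passed, Snai1 and Eed, where 30.7% of all 9432 genes and 29.3% of all probes did, so this count too was not above the background.

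**Figure D1:**
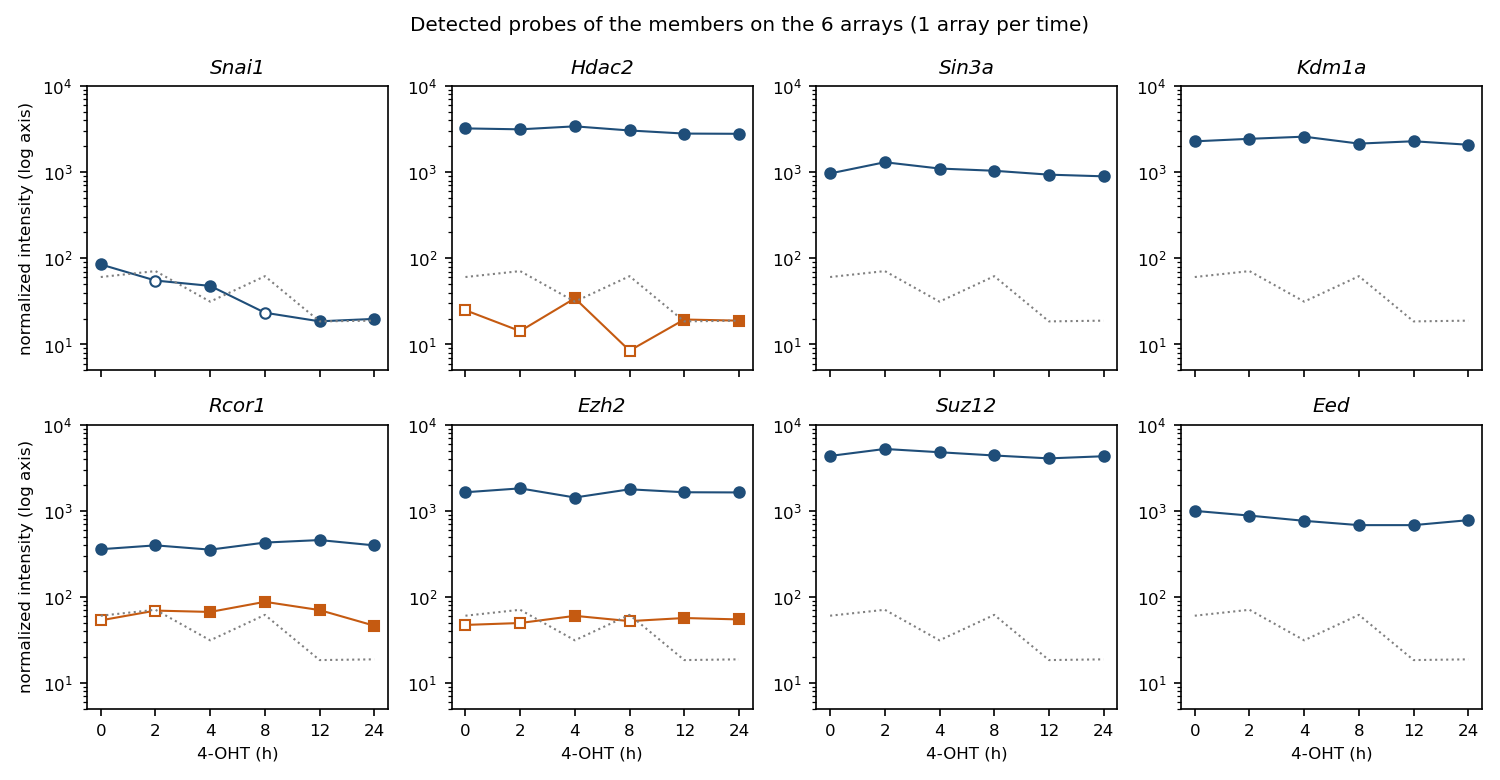
Normalized intensity (vertical log axis) of the 11 detected member probes on the 6 arrays, by hours of 4-OHT. Filled points were detected, open points were not, the second colour marks a dimmer probe of the same gene, and the dotted line is the lowest intensity of a detected probe on each array. Snai1 declines from 84.9 to 19.8 close to that line, while the brightest probe of each corepressor gene lies well above it and spans at most 1.45-fold, the span of Sin3a and Eed.

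Snai1 gave normalized intensities of 84.9, 55.2, 47.9, 23.4, 18.6 and 19.8 at 0, 2, 4, 8, 12 and 24 h. The 0 h array was the highest, and the 12 and 24 h arrays were the lowest. The probe was detected at 0, 4, 12 and 24 h, at 12 and 24 h only just above the limit, and was below the limit at 2 and 8 h. It has no detection p-value of its own, so these calls rest on the limits alone. On the log2(intensity + 16) scale, which understates the change of dim genes, the 0 h value of Snai1 exceeded that at 4 h by 1.58-fold, that at 12 h by 2.92-fold and that at 24 h by 2.82-fold. At 8 h it was at least 1.29-fold lower and at 2 h at least 1.16-fold lower, against the detection limits of those arrays. Single arrays carry no replicate error, so these folds have no test.

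The fitted change of Snai1 was -1.71 ± 0.28 (SE, log2, 6 arrays; limma adjusted p = 0.0064), with a 95% interval from -2.33 to -1.09. The fit took the 2 and 8 h values as measured, although both were below the limit, so the estimate and its interval rest partly on undetected values. Among the arrays with the low detection limits, on all of which Snai1 was detected, its log2 difference from 4 h was -0.89 at 12 h and -0.83 at 24 h. Among those with the high limits only the 0 h value was above the limit, so they give only the bounds above. The call was lost without the 0 h array (-1.76; limma adjusted p = 0.066), with the number of detected probes per array as a covariate (-1.86; limma adjusted p = 0.080), against untransformed hours (-1.40; limma adjusted p = 0.093) and with no filter on dim probes (-1.71; limma adjusted p = 0.18), and the direction did not change in any of these.

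The other Snai1 probe was not detected on any array, with values from -8.76 to 13.3. Where the Snai1 probes lie relative to the coding part carried by the fusion was not given in the sources used here. Transcripts of the endogenous gene and of the fusion can therefore not be told apart.

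At least 2-fold differences from 0 h were also confined to Snai1 among the member probes. At 8, 12 and 24 h, 1 member probe, that of Snai1, was at least 2-fold lower on the fitted scale, of 9, 11 and 11 detected there or at 0 h. At those times 4.46%, 3.91% and 3.76% of all probes were at least 2-fold lower. The 8 h count uses a Snai1 value below the detection limit. Against that limit Snai1 was at least 1.29-fold lower at 8 h, so a 2-fold difference is not shown there. No member probe was 2-fold higher at any time, where 0.523%, 0.272%, 2.36%, 4.3% and 4.41% of all probes were in order of time. At 2 and 4 h no member probe was 2-fold lower, against 1.05% and 1.32% of all probes. With 64 rather than 16 added before the logarithm, the Snai1 probe was no longer 2-fold lower at any time.

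Among the deacetylase and Sin3 subunits, Hdac2 encodes a histone deacetylase of the Sin3, NuRD and CoREST complexes. Its bright probe gave 3220, 3141, 3402, 3046, 2804 and 2787 in order of time. The highest value was at 4 h and the lowest at 24 h, a span of 1.22-fold. Hdac2 changed along the line by -0.23 ± 0.13 (log2 ± SE; limma adjusted p = 0.26), with a 95% interval from -0.52 to 0.05. Without the 0 h array it was -0.38 (limma adjusted p = 0.25). A dim Hdac2 probe, detected at 4, 12 and 24 h, had a wide interval from -1.17 to 0.62.

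Sin3a, the scaffold of the Sin3 complex, gave 966, 1304, 1102, 1038, 935 and 894 in order of time. It was 1.34-fold higher at 2 h than at 0 h and then lower on each later array. Along the line Sin3a changed by -0.23 ± 0.20 (log2 ± SE; limma adjusted p = 0.46), with a 95% interval from -0.67 to 0.20. The value depended on single arrays. Without the 0 h array it was -0.80 (limma adjusted p = 0.063), outside that interval. Leaving out the 2 h or the 24 h array gave -0.11 or -0.10, and the sign turned with the number of detected probes as a covariate (0.07). A line over the 6 times is a poor summary of a value that is highest at 2 h, so each array was also set against the other 5 with limma, a comparison chosen after the values were seen. The 2 h array differed by 0.40 for Sin3a (95% interval 0.05 to 0.75), with an unadjusted limma p of 0.029 and an adjusted p of 0.99. That fit called 0 of 17143 probes on any array, with 369 at an unadjusted p under 0.05 for the 2 h array.

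In the demethylase complex, Kdm1a, also called LSD1, gave 2279, 2438, 2582, 2145, 2284 and 2080 in order of time. The 4 h array was the highest and the 24 h array the lowest, a span of 1.24-fold. Along the line Kdm1a changed by -0.16 ± 0.15 (log2 ± SE; limma adjusted p = 0.50), with a 95% interval from -0.48 to 0.16. Without the 0 h array it was -0.40 (limma adjusted p = 0.25), and leaving out that at 24 h gave -0.06. Rcor1 encodes CoREST, which holds Kdm1a on nucleosomes, and its bright probe gave 358, 398, 354, 428, 458 and 397 in order of time. Rcor1 was the 1 member whose brightest probe had a positive fitted change, 0.24 ± 0.18 (log2 ± SE; limma adjusted p = 0.40; 95% interval -0.16 to 0.63), and 0.38 without the 24 h array. Its dim probe peaked at 8 h, at 87.9, and ended at 46.4, with a fitted change of 0.01 ± 0.30 whose sign turned in 4 of the alternative settings.

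Of the PRC2 subunits, Ezh2, the methyltransferase, gave 1643, 1823, 1428, 1778, 1643 and 1636 in order of time. The 0, 12 and 24 h values were nearly the same, and the extremes were at 2 and 4 h. Ezh2 changed along the line by -0.01 ± 0.16 (log2 ± SE; limma adjusted p = 0.96), with a 95% interval from -0.37 to 0.34, and its sign turned in 3 of the alternative settings. A dim Ezh2 probe stayed between 47.4 and 60.4 and another Ezh2 probe was not detected on any array. Suz12, which holds the complex together, gave 4338, 5226, 4790, 4390, 4063 and 4303 in order of time, highest at 2 h by 1.20-fold over 0 h. Suz12 changed along the line by -0.14 ± 0.15 (log2 ± SE; limma adjusted p = 0.55; 95% interval -0.47 to 0.18). Without the 0 h array Suz12 changed by -0.48 (limma adjusted p = 0.14). Leaving out the 2 h or the 12 h array gave -0.06 or -0.08, and the sign turned with the covariate (0.02).

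Eed, the subunit that binds the mark made by PRC2 and stimulates Ezh2, came closest to the threshold after Snai1. Its bright probe gave 999, 881, 766, 683, 683 and 780 in order of time. The 0 h array was the highest, and the later arrays were 1.13-fold lower at 2 h, 1.45-fold at 8 and 12 h and 1.28-fold at 24 h. Along the line Eed changed by -0.48 ± 0.17 (log2 ± SE; limma adjusted p = 0.099), with a 95% interval from -0.86 to -0.09 and an unadjusted p of 0.019. Its size rested on the end arrays and the time scale. Without the 24 h array it passed (-0.74; limma adjusted p = 0.042), without the 0 h array it was -0.31 (limma adjusted p = 0.51), and against untransformed hours it was -0.28 (limma adjusted p = 0.43). Among the arrays with low detection limits the log2 difference of Eed from 4 h was -0.16 at 12 h and 0.03 at 24 h. Its other probe was not detected on any array.

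**Figure D2:**
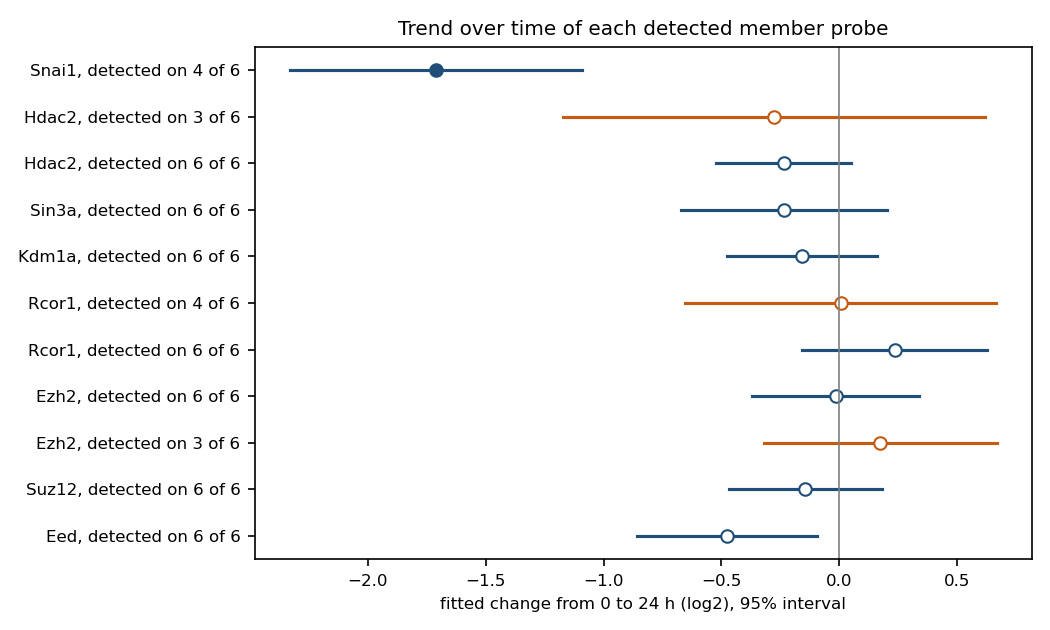
Fitted change from 0 to 24 h (horizontal axis, log2) of the 11 detected member probes, with 95% intervals from limma. Filled points passed an adjusted p of 0.05, and orange marks the dimmer probe of a gene with several. Only the Snai1 probe is filled, at -1.71, and the interval of Eed, from -0.86 to -0.09, also lies below 0.

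Of the 7 member probes detected on all 6 arrays, 5 had an SD over the arrays below the median of all 9437 such probes, 0.17 on the log2 scale, and Sin3a and Eed had one above it. The SD ran from 0.11 for Hdac2 and Kdm1a to 0.21 for Eed. The highest array was that at 2 h for 3 of the 7 (Sin3a, Ezh2 and Suz12), at 4 h for 2 (Hdac2 and Kdm1a), at 12 h for Rcor1 and at 0 h for Eed, whereas 13.6% of all such probes were highest at 2 h and 12.9% at 4 h. At 24 h, 6 of the 7 were lower than at 0 h, as were 48.2% of all such probes, by between 1.00-fold for Ezh2 and 1.28-fold for Eed. These 7 values come from the same pair of arrays and are not independent of each other.

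Genes with a time course like that of Snai1 were sought by Pearson correlation over the 6 arrays, among 725 genes detected on at least 4 arrays and with a range of at least 1 on the log2 scale. The 5 highest were Llgl2 (0.996), Chmp4c (0.991), Glrx (0.991), Zfp42 (0.991) and Itpk1 (0.990). Llgl2 encodes a polarity protein of epithelial cells and is a reported Snail target, and gave 1140, 908, 871, 598, 566 and 540 in order of time. Zfp42, also called Rex1, marks undifferentiated stem cells and gave 3749, 2454, 2461, 1048, 1018 and 960. Chmp4c encodes a membrane scission protein, Glrx a glutaredoxin and Itpk1 an inositol phosphate kinase, and their intensities at 24 h were 82.8, 866 and 400 against 270, 1626 and 896 at 0 h. All 5 were detected on all 6 arrays. Their limma adjusted p values, from 0.0036 to 0.0082, add no evidence. The genes were picked for their likeness to a falling course on these same arrays. With 6 arrays and so many genes, correlations of this size are a description. Among the members, Eed was most like Snai1 (0.88) and Rcor1 least (-0.78).

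**Figure D3:**
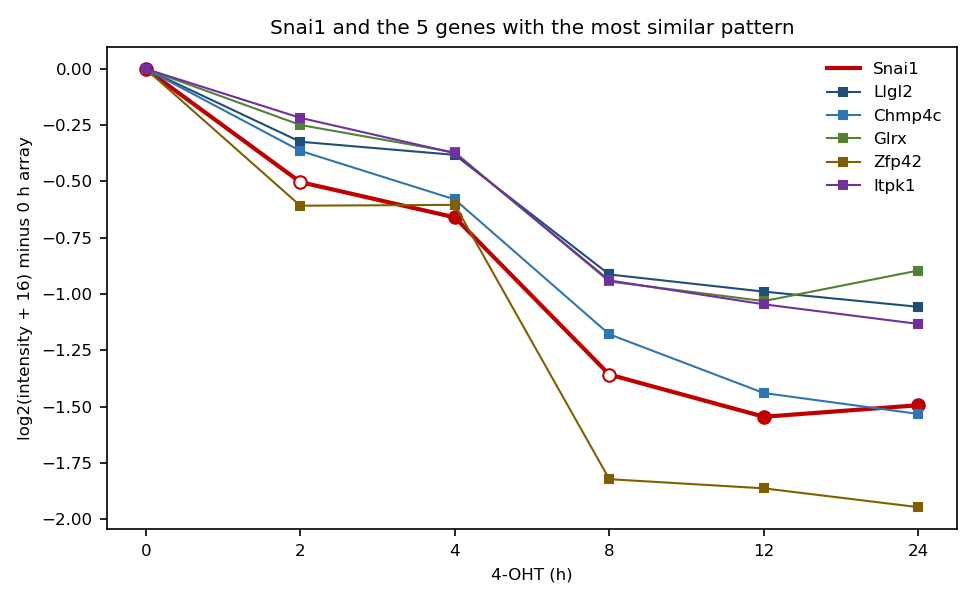
Difference from the 0 h array in log2(intensity + 16) (vertical axis) by hours of 4-OHT for Snai1 and the 5 genes whose courses resembled it most. Open points mark arrays where the Snai1 probe was not detected. All 6 curves as drawn decline between 4 and 8 h, and Snai1 ends at -1.49. For Snai1 the decline between 4 and 8 h rests on an undetected 8 h value.

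Other subunits and partners of these complexes were listed in 10 groups with 134 different genes, Rbbp4 and Rbbp7 in both the Sin3 and the PRC2 group, and 102 of the genes were detected. By the brightest probe of each gene, 4 rose and 10 fell, 13.7% of those detected, where 12.7% of all 9432 genes were called (6.49% rose and 6.22% fell). As a whole the partners were thus called about as often as other genes. The median fitted change of all genes was 0.06. In 7 further partner genes a dimmer probe was called while the brightest was not, and these are given with their groups below. The share of all genes with such a probe was not counted, so these 7 have no background and are a description. The counts at an unadjusted p that follow are to be read against the 30.7% of all genes.

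**Figure D4:**
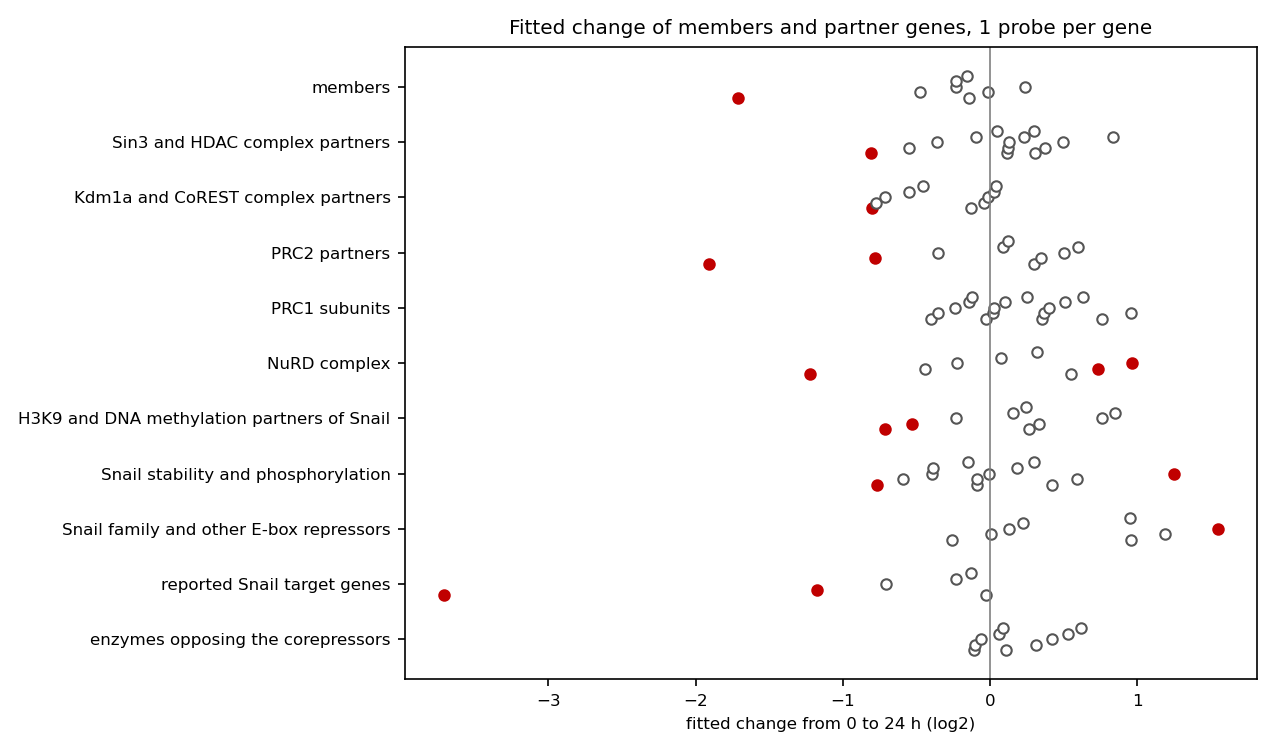
Fitted change from 0 to 24 h (horizontal axis, log2) of the brightest probe of each detected gene, for the members and the 10 partner groups. Filled points passed a limma adjusted p of 0.05 and open points did not. The filled points are spread over most groups, and the lowest, at -3.71, is Cldn4.

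Of 14 detected Sin3 and HDAC partners, 1 fell and none rose (2 at an unadjusted limma p under 0.05; median change 0.13). It was Arid4a, an RB-binding Sin3 subunit, whose 24 h value was 1.79-fold below that at 0 h (change along the line -0.81; limma adjusted p = 0.031). Its other probes changed by -0.24 and -0.21 and did not pass, and the call was lost without the 2, 12 or 24 h array (limma adjusted p up to 0.16). The paralog Sin3b changed by 0.12 ± 0.15 and Hdac3 by 0.04 ± 0.15 (SE; limma adjusted p = 0.64 and 0.87). Of 10 detected CoREST partners, 1 fell and none rose (2 at an unadjusted limma p under 0.05; median change -0.29). That gene, Zmym3, which encodes a zinc finger protein found with Kdm1a, was 1.56-fold lower at 24 h (limma adjusted p = 0.023), and both of its probes fell. Its call was lost without the 0, 2 or 12 h array (limma adjusted p up to 0.11). Rcor2, the Rcor1 paralog, changed by 0.03 ± 0.21 (SE; limma adjusted p = 0.95), and Rcor3 was not detected on any array.

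Of 9 detected PRC2 partners, 2 fell and none rose (4 at an unadjusted limma p under 0.05; median change 0.13). Phf19, a Polycomb-like protein that guides PRC2 to chromatin, gave 123, 51.6, 58.0, 30.8, 33.5 and 18.0 in order of time. Like Snai1 it was highest at 0 h and near the limit later, detected at 0, 4 and 12 h, and it was at least 3.99-fold lower at 24 h than at 0 h (change along the line -1.91 ± 0.27; limma adjusted p = 0.0043). The Phf19 call was lost without the 0 h array (limma adjusted p = 0.068). Epop, which links PRC2 to elongin, gave 2341, 2452, 2220, 1576, 1716 and 1466 in order of time, with the 3 early arrays above the 3 late ones (fitted change -0.78 ± 0.18; limma adjusted p = 0.021). The Epop call was lost without the 12 or 24 h array (limma adjusted p up to 0.095). Of the 3 probes of Mtf2, another Polycomb-like protein, the brightest did not pass (-0.36; limma adjusted p = 0.15), while both dimmer ones fell, by 0.83 and 0.77 on the log2 scale (limma adjusted p = 0.027 and 0.048), and all were detected on all 6 arrays. Ezh1, the Ezh2 paralog, was not detected on any array. Of 17 detected subunits of Polycomb repressive complex 1, limma called 0 by the brightest probe, with 4 at an unadjusted p under 0.05. A dim probe of Pcgf5, detected at 0 h alone, changed by -1.41 along the line (limma adjusted p = 0.025), and 1 of Kdm2b, detected at 12 and 24 h alone, by 1.17 (limma adjusted p = 0.035). Those probes entered the test only through the arrays where they were high, and the brightest probes changed by 0.25 for Pcgf5 and -0.40 for Kdm2b. Cbx2, a reader of the PRC2 mark, was 1.72-fold higher at 24 h without passing (limma adjusted p = 0.052).

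In the NuRD complex, which pairs a deacetylase with a remodeller, 2 of 8 detected genes rose and 1 fell (median change 0.20). At an unadjusted limma p under 0.05, 5 of the 8 passed, where 30.7% of all genes did. Mbd3, a core subunit, was 1.44-fold higher at 24 h (limma adjusted p = 0.040). Mbd2, which takes the place of Mbd3 in a separate form of the complex and binds methylated DNA, was 2.15-fold lower (limma adjusted p = 0.022). Mta1 was not detected at 0 h and was higher by at least 1.66-fold at 24 h (limma adjusted p = 0.016). Each of these calls was lost without the 12 h array, Mbd3 and Mbd2 also without the 2 h array, Mbd3 and Mta1 without the 0 h array and Mbd2 without the 24 h array (limma adjusted p up to 0.16). Mta3 had a dimmer probe, detected on all arrays, that rose (0.85; limma adjusted p = 0.035), while its brightest changed by 0.32 (limma adjusted p = 0.16). The 4 detected probes of Chd4, the remodeller, disagreed. The brightest changed by 0.55 without passing (limma adjusted p = 0.064). A dim one, detected at 0 h alone, changed by -1.79 (limma adjusted p = 0.012). That dim probe entered the test only through the array where it was high, so its call does not by itself show a change. Of 9 detected partners that methylate histones or DNA or connect Snail to such enzymes, 2 fell (median change 0.25). In this group 5 of the 9 passed at an unadjusted limma p under 0.05. Ehmt2, the H3K9 methyltransferase G9a, was 1.54-fold lower at 24 h (limma adjusted p = 0.028), with both of its probes falling, and lost its call without the 2, 12 or 24 h array (limma adjusted p up to 0.11). Dnmt1, the maintenance DNA methyltransferase, was 1.44-fold lower (limma adjusted p = 0.038) and lost its call without any 1 of the 6 arrays (limma adjusted p from 0.052 to 0.14). Both probes of Ajuba were detected at 12 and 24 h alone and entered the test only through those late arrays with low limits. The dimmer one changed by 1.23 along the line (limma adjusted p = 0.039), which does not by itself show a change. The brighter one, at 0.76, did not pass (limma adjusted p = 0.13).

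Of 13 detected genes for the stability and phosphorylation of Snail, 1 rose and 1 fell (median change -0.09). At an unadjusted limma p under 0.05, 5 of the 13 passed. Mdm2, a ubiquitin ligase that targets p53, was 1.93-fold above its 0 h value at 24 h (change along the line 1.25 ± 0.25; limma adjusted p = 0.013). The Mdm2 call was lost without the 0 h array (limma adjusted p = 0.052), and its other probe changed by 0.89 without passing (limma adjusted p = 0.057). Csnk1e, a casein kinase gene, was 1.65-fold lower at that time (change along the line -0.77 ± 0.15; limma adjusted p = 0.012), and both of its probes fell. Its call was lost without the 24 h array (limma adjusted p = 0.058). Gsk3b, the kinase that marks Snail for degradation, changed by 0.42 ± 0.18 (SE; limma adjusted p = 0.14). Its dimmer probe had the other sign (-0.28; limma adjusted p = 0.52).

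Among 8 detected genes of the Snail family and other E-box repressors, limma called Twist1 alone (median change 0.59). At an unadjusted limma p under 0.05, 4 of the 8 passed. These were Twist1, Tcf12, Zeb2 and Gsc, each undetected before 12 h. All of them entered the test only through late arrays with low limits, where they were high. Neither this count nor the median of the group therefore shows a change by itself. Twist1 gave 8.12, 8.19, 17.6, 48.2, 47.1 and 35.0 in order of time and was detected at 12 and 24 h alone, below the 0 h limit on all arrays, so no fold is given (fitted change 1.55 ± 0.40; limma adjusted p = 0.033). Its probe entered the test only through the late arrays with low limits, where it was high, so this call, 1 of the 4 counted as rising among the partners, does not by itself show a change. Its call was lost without the 0, 2 or 12 h array (limma adjusted p up to 0.12). Snai2, or Slug, was not detected on any array, and Snai3 changed by 0.23 ± 0.31 (SE; limma adjusted p = 0.67). Of 6 detected reported Snail targets, Crb3 was detected at 4 h alone and Cldn7 at 24 h alone. The median change of the 6 was -0.47, 2 fell and none rose, and only those 2 had an unadjusted limma p under 0.05. They were Cldn4, with 864, 281, 337, 58.1, 97.5 and 62.4 in order of time, and Llgl2, and neither lost its call when any 1 array was left out. Cdh1, which encodes E-cadherin and is the best known target, changed by -0.13 ± 0.16 (SE; limma adjusted p = 0.61). Of 10 enzymes that oppose the corepressors, such as the demethylases of the PRC2 mark Kdm6a and Kdm6b and the acetyltransferase Ep300, limma called 0 by the brightest probe, with 1 at an unadjusted p under 0.05. The 3 detected probes of Kdm6b disagreed. The brightest changed by -0.06 (limma adjusted p = 0.87) and the next by -0.21, while the dimmest fell (-1.59; limma adjusted p = 0.038), with 87.3, 119, 30.6, 43.7, 27.5 and 26.5 in order of time and undetected at 4 and 8 h.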

How the data were processed

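The authors deposited normalized intensity values for 45281 probes and, for 32765 of them, unsubtracted intensity values with detection p-values, per the file headers. The submitters' processing notes name GenomeStudio, without a version. Judged by its values, that table is on a linear scale, with background subtracted and quantile normalization, and how the background was subtracted is not given in the sources used here. Negative values were set to 0, 16 was added and log2 taken. Of the probes, 34885 had 1 gene symbol, 18 several and 10378 none, and 34807 matched RefSeq genes of GRCm38.p6. The fit used limma 3.58.1 in R 4.3.3 (lmFit, then eBayes with trend, 2-sided, Benjamini-Hochberg over 17143 probes), with 1 array per time, so its p-values measure scatter about a line, which may be technical. It was tested on simulated data. Partner genes are represented by the probe with the highest mean. Named partners are those past the test, up to 6 a list, the fixed paralogs and genes with a dimmer probe called. Some others, such as Cbx2, Gsk3b and Cdh1, were picked by hand. The members and lists were chosen with earlier results of these data known. The precision is limited by the number of arrays. Alternatives changed the offset, filter, probe choice, table, time scale, covariate, variance model and arrays.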

Additional observations from a re-analysis of the deposited data

How the results depend on the processing

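The fitted change of Snai1 stayed negative in all 14 alternatives and kept its call in 10. It was not past the threshold with no filter on dim probes (-1.71), against untransformed hours (-1.40), with the number of detected probes as a covariate (-1.86) and without the 0 h array, and ran from -1.98 to -1.60 when 1 array was left out. The probes called over the whole array, 1020 rising and 930 falling, moved more. They were 0 and 0 with no filter, 544 and 607 among probes detected on all 6 arrays, 589 and 584 with 1 probe per gene, 75 and 36 against untransformed hours, 1552 and 1485 with a step between 4 and 8 h, and 0 and 1 with the covariate. In the unsubtracted intensities with no background correction, 671 probes rose, and with no intensity trend 542 fell. Leaving out 1 array gave 289 to 969 rising and 335 to 1048 falling. The number of member genes called, 1 in the reported fit, was 0 with no filter, 0 among probes detected on all 6 arrays and 0 in both fits of the unsubtracted table, which do not hold the Snai1 probe, 0 against untransformed hours and 0 with the covariate, and 0 to 2 with 1 array left out. With an offset of 64, 0 member probes were 2-fold lower at 8, 12 or 24 h. Of the alternatives for the other members, 157 kept the side of the threshold and 1, Eed without the 24 h array, passed it. Of the called partner genes, 3 (Zmym3, Phf19 and Twist1) have no value in the unsubtracted table, so the CoREST group had 0 falling, PRC2 1 falling and the E-box repressors 0 rising there. The causes of these moves were not tested, apart from the smaller sets of probes or arrays. No paired analysis was possible because each time has 1 array.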
